A study of Mus musculus with 6 samples.

Results

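The genes described here are 38 genes of DNA replication and S phase, taken from a list of gene names: origin licensing factors, the MCM helicase ring, the factors that activate it, the replicative polymerases and primase, the sliding clamp with its loader and the enzymes that join Okazaki fragments, the enzymes of deoxynucleotide supply, and the E cyclins. Of the 38, 36 had a probe set of their own on the array, among 16797 genes tested. Rfc4, a clamp loader subunit, shared its probe set with Eif4a2, and Ccne2, an E cyclin, shared its own with Ints8, so no value is given for either. All 36 passed the filter on dim probe sets, a mean log2 intensity of at least 4.49, with each gene represented by its brightest probe set.

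RNA came from 3 mouse tumour lines: LLC (Lewis lung carcinoma), AE17 (malignant mesothelioma) and MC38 (colon adenocarcinoma). Each line gave 1 array labelled sh Spp1, with genotype Spp1 depletion, and 1 labelled sh Ctrl, with genotype wild type. A short hairpin RNA (shRNA) lowers the transcript it matches, here Spp1, which encodes the secreted glycoprotein osteopontin. All 6 cultures grew in DMEM with fetal bovine serum, and the total RNA was labelled with biotin for 1-colour whole-transcript arrays. The labels do not say whether the sh Ctrl cells carried a control hairpin, whether the sh Spp1 cells were clones or pools, or which hairpin sequence was used. No probe set with a gene name used here names Spp1, so the knockdown itself was not analysed here.

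Values are log2 intensities after quantile normalization of the 6 arrays, and a ratio is the log2 level on the sh Spp1 array minus that on the sh Ctrl array of the same line. Within a line this is 1 array over 1 array, with no replicate, and the number of arrays limits the precision. As deposited, the median intensity was 37.2 on the sh Spp1 array and 64.2 on the sh Ctrl array in LLC, while AE17 had 26.6 and 36.3 and MC38 43.7 and 49.4. Across all probe sets the arrays of a line correlated at r = 0.979 in LLC and 0.982 in MC38. The AE17 pair correlated at r = 0.939, below the correlation of either AE17 array with any array of another line, which was 0.942 to 0.949 for sh Spp1 and 0.943 to 0.954 for sh Ctrl. In LLC and MC38 the pair correlated more closely than any arrays of different lines, which reached at most 0.965. The AE17 arrays were thus less alike than each was to arrays of other lines, and every AE17 ratio below is taken between them. Their log2 ratios spread across genes with an SD of 0.93, against 0.45 in LLC and 0.42 in MC38. No tissue's marker list had its highest summed log2 level on an array of the line labelled with that tissue. Over 6 lung epithelial markers the sum was highest on the AE17 sh Ctrl array, at 31.2. LLC had 29.5 on its sh Spp1 array, the highest of the sh Spp1 arrays, and 29.1 on its sh Ctrl array. The sum over 7 intestinal epithelial markers was also highest on the AE17 sh Ctrl array, at 36.9, against 33.5 and 33.0 on the MC38 arrays. Msln, a mesothelial surface protein, had log2 levels of 5.34 and 5.13 on the AE17 sh Spp1 and sh Ctrl arrays, against 9.96 and 9.87 in MC38. Of 7 intestinal epithelial markers, 4 to 6 were above the brightness floor on each array, with Lgals4, Cdx2, Cdx1 and Vil1 above it on all 6 and the adhesion gene Epcam on none. That floor is a percentile of probe set means and does not show that a gene is expressed. Vil1, at 4.49 to 5.04, Cdx1, at 4.74 to 5.07, and Cdx2, at 4.96 to 5.57, lay close to the floor in all lines. Of 5 measured leukocyte markers, 1 to 3 were above it on each array. Among them the macrophage marker Cd68 was above it on all 6, at 6.51 to 8.71, and the pan-leukocyte gene Ptprc on none. Lyz2, a myeloid lysozyme, had 5.12 on the sh Spp1 array and 7.50 on the sh Ctrl array of AE17. The summed log2 levels of the 5 ran from 22.6 to 25.9 on the sh Spp1 arrays and from 23.1 to 27.2 on the sh Ctrl arrays. Summed over 7 mesothelial markers, log2 levels came to 44.8 on the sh Spp1 array and 37.8 on the sh Ctrl array of AE17, while the arrays of LLC (37.99 and 37.2) and of MC38 (48.8 and 48.0) were closer together. What part these markers had in the values below was not tested.

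A cell copies its genome once per cycle. In late mitosis and G1 the origin recognition complex, with Cdc6 and Cdt1, loads the ring of Mcm2 to Mcm7 onto DNA, which licenses an origin. In S phase Cdc45 and the GINS complex join the ring to form the active helicase, polymerase alpha with primase starts each strand, and polymerases delta and epsilon, held by the clamp PCNA, extend it. Ribonucleotide reductase and thymidylate synthase supply the deoxynucleotides. Most of these genes are transcribed at the G1 to S transition under E2F factors, which bind DNA of the type TTTCCCGC or TTTGGCGC and are held back by the retinoblastoma family.

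Promoter windows from 250 bases before to 50 bases after the annotated start site, taken from RefSeq on build GRCm38.p6, were held for 30 of the 38 genes. Mcm4, Gins1, Gins2, Gins4, Prim2, Pole, Rfc2 and Ccne2 had none in the table. The 4 spellings TTTCCCGC, TTTCGCGC, TTTGCCGC and TTTGGCGC were searched on both strands, with overlapping matches allowed. The 30 genes had 35 windows, and a gene was counted if any of its windows held a match. At least 1 of the spellings was found in 13 of the 30 genes, or 43.3%, and in 704 of the 27025 genes of the whole table, or 2.6%. The CCAAT box, searched as CCAAT on both strands, was found in 19 of the 30, or 63.3%, against 41.1% of all genes. The letters TTTGAA, a cell cycle element found in many genes of G2 and mitosis, were in 5 of the 30, or 16.7%, against 20.2% of all genes. A match of letters is a description of these windows and shows no binding.

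**Figure D1:**
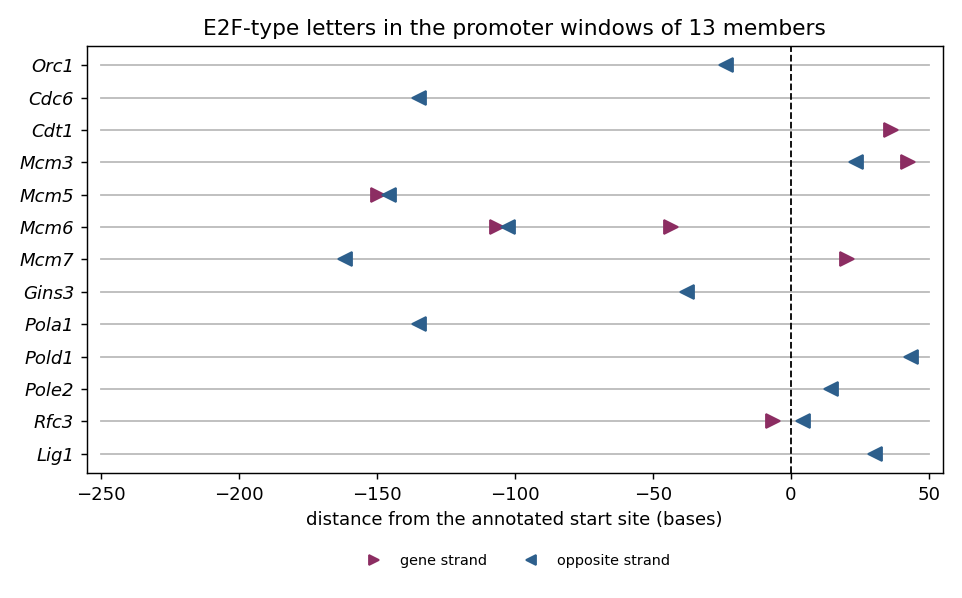
Positions of the E2F-type letters in the promoter windows of the 13 members that hold them. Each grey line is a window, the x axis is the distance in bases from the annotated start site (dashed line), and each triangle is 1 match, pointing right on the gene's strand and left on the opposite strand. Mcm6 holds 3 matches, and Mcm3, Mcm5, Mcm7 and Rfc3 hold 2 each.

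The windows of 8 genes are shown. Cdt1 and Ccne1 had the highest ratios in LLC, and Mcm7 and Pole2 the lowest of those with a window. The others had opposite signs within a subset in AE17. Mcm2 (0.493) was the highest of the ring genes with a window, close to Mcm5 (0.487), and Mcm6 (-0.48) was the lowest. Among the polymerases Pold1 was the highest and Pola1 the lowest. Each window is written 5' to 3' on the strand of its gene, in lower case, with the E2F-type letters in capitals. Where a match is on the opposite strand, the capitals read GCGGGAAA, GCGCGAAA or GCGCCAAA. The windows lie at chr8:122567765-122568064, plus strand (Cdt1), chr7:38107441-38107740, minus strand (Ccne1), chr5:138171834-138172133, minus strand (Mcm7), chr12:69228141-69228440, minus strand (Pole2), chr6:88898731-88899030, minus strand (Mcm2), chr1:128359656-128359955, minus strand (Mcm6), chrX:93632106-93632405, minus strand (Pola1) and chr7:44548766-44549065, minus strand (Pold1).
Cdt1: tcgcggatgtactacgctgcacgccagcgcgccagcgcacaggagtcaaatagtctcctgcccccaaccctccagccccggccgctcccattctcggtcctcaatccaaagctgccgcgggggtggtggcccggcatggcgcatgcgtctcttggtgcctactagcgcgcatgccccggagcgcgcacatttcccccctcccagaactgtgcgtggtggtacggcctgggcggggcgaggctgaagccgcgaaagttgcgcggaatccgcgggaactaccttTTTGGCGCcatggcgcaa
Ccne1: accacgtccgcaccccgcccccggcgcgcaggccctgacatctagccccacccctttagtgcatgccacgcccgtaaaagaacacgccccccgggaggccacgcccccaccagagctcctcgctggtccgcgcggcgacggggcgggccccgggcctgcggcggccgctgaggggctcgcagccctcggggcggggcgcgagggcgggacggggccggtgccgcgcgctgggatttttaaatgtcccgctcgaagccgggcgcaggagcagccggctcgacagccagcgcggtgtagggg
Mcm7: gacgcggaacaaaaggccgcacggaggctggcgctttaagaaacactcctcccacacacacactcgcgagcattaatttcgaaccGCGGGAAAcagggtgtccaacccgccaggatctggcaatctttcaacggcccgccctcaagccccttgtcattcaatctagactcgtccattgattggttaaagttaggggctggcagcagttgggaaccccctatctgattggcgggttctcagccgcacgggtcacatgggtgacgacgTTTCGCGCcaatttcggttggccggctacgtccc
Pole2: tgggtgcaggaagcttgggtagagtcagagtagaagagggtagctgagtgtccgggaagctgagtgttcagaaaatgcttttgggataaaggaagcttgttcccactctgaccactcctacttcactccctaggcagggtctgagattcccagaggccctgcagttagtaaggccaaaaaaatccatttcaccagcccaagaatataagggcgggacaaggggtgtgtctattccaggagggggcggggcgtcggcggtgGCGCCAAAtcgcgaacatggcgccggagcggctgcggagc
Mcm2: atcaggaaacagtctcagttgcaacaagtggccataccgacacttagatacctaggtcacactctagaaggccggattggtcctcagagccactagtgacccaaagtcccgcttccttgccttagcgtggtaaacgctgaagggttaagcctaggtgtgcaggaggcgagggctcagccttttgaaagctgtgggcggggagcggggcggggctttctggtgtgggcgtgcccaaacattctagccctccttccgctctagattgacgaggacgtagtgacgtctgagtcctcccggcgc
Mcm6: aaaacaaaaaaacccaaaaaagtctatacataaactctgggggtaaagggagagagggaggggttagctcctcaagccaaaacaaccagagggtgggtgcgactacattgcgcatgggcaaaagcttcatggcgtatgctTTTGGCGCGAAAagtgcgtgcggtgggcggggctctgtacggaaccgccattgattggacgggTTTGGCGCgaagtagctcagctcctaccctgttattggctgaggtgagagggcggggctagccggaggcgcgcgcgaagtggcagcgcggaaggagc
Pola1: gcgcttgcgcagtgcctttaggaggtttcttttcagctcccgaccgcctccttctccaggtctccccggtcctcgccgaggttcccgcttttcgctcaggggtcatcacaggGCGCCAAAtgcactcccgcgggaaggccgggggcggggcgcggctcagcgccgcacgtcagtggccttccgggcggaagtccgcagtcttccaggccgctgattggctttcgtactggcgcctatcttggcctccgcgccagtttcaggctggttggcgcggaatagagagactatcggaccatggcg
Pold1: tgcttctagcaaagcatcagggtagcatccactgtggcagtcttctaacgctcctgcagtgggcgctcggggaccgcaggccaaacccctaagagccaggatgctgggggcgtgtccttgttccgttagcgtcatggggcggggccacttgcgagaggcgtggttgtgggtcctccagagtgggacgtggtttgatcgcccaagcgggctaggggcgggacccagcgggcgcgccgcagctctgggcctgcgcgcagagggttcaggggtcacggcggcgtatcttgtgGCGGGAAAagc
In Mcm6 a pair of matches on opposite strands overlap to form 1 stretch of capitals upstream of the start site, and a further match lies nearer to it. The Mcm7 window shown has 1 match upstream and 1 just after the start, while a second window of this gene, not shown, holds none. Cdt1, Pole2 and Pold1 hold theirs after the start site, Pola1 upstream of it, and the windows of Ccne1 and Mcm2 hold none. Of the 30 genes with a window, 29 were measured. The 13 with the letters had a median log2 ratio of -0.69 in LLC, with a range of -1.38 to 0.35. The 16 whose windows lack them had -0.35, with a range of -1.29 to 0.20. The ranges overlap along most of their length. In AE17 the medians were 0.03 and -0.03, and in MC38 0.06 and 0.01. Neither group holds Mcm4, Gins2, Gins4, Prim2 and Pole, which had no window and were each lower by at least 1 log2 unit in LLC.

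The study's comparison sets sh Spp1 against sh Ctrl cells. In LLC the replication genes were lower on the sh Spp1 array almost throughout: 32 of 36 had a ratio below 0, where 47.2% of all genes did, and the median was -0.65, against 0.03 for all genes. Of the 36, 10 were lower by at least 1 log2 unit, which is 2-fold, where 1.81% of all genes measured in LLC were. None was higher by that much, where 1.75% of all genes were. The AE17 median was -0.01 and the MC38 median -0.03, with 19 and 20 of 36 genes below 0, where 52.7% and 47.7% of all genes were. In AE17 4 of 36 genes were lower by at least 1 log2 unit, where 8.72% of all genes were, and 0 were higher, where 9.9% were. In MC38 0 of 36 were past that size in either direction, where 1.71% of all genes were lower and 0.881% higher. Cultures were measured in bulk, so fewer cells in S phase and less of these transcripts per cell cannot be told apart.

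**Figure D2:**
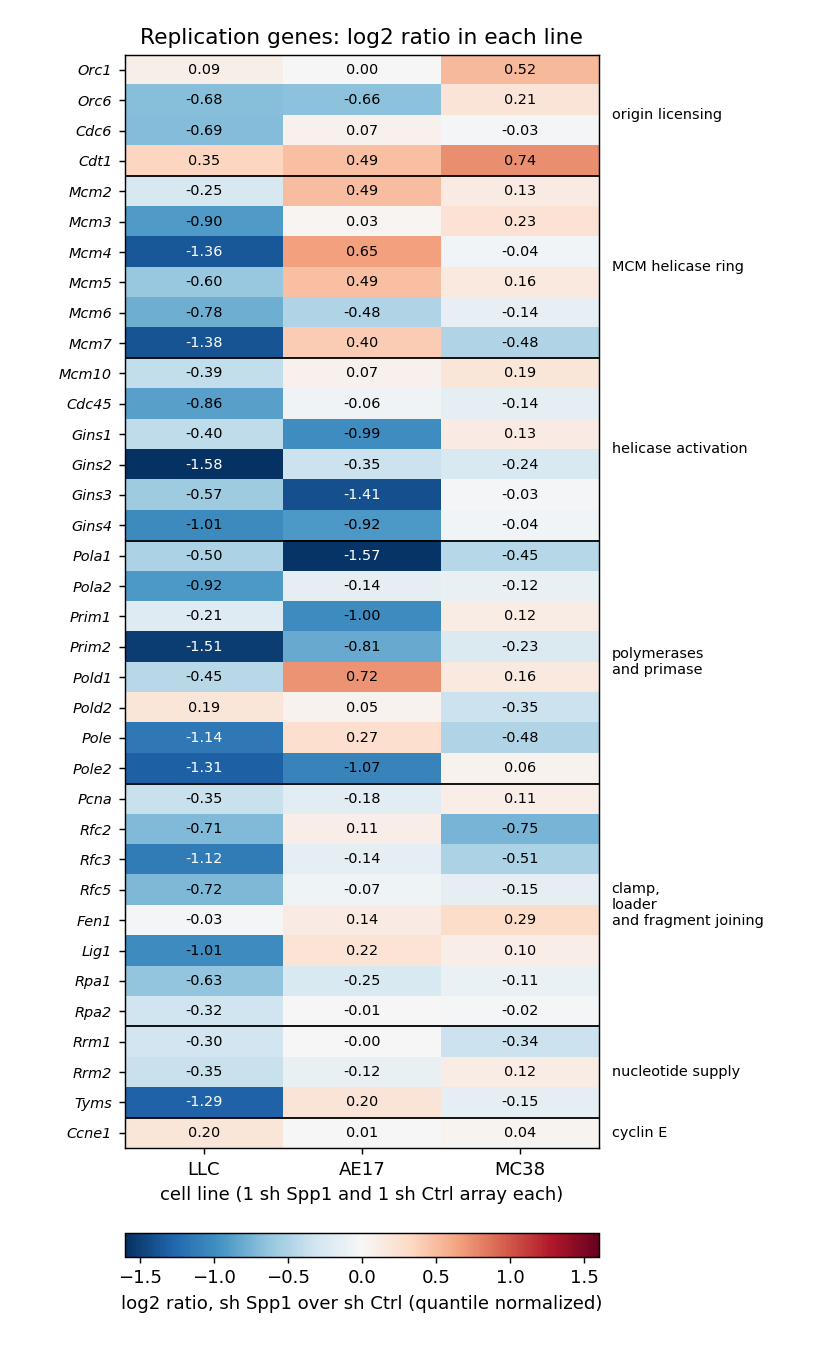
Log2 ratio of sh Spp1 over sh Ctrl for the 36 measured genes (rows, grouped by role) in the 3 lines (columns), on quantile normalized intensities. Each cell is 1 array over 1 array and prints its value. The LLC column is blue in 32 of 36 rows, while AE17 and MC38 are mixed.

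Over the 3 lines no gene passed. In limma, blocking on cell line, with p-values adjusted by Benjamini and Hochberg's method over 16797 genes, 0 genes (0%) and so 0 of the 36 members reached an adjusted p under 0.05. At an unadjusted p under 0.05, 2 of 36 members were lower (Pola1 and Prim2), where 2.61% of all genes were, and 1 was higher (Cdt1), where 3.45% were. The smallest adjusted p among the members was 0.723. The sign was negative in all 3 lines for 13 of 36 members, where 15.5% of all genes were, and positive in all 3 for 3 of 36, where 16.8% were. These counts depend on the scaling. In the values as deposited, 2 of 36 (Pola1 and Rfc3) were negative in all 3 lines, where 30.5% of all genes were, and relative to the median of all genes 1 was, Pola1, where 24.9% were. Relative to genes as bright as the members, described below, 10 were, where 16% of those genes were. With 3 pairs, the smallest p that exact sign flipping allows is 0.25. Where the labels do not say that cultures were independent, p-values measure only the spread between these lines.

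Origin licensing factors did not share a direction. Cdt1 (Entrez gene 67177), which brings the MCM ring to origins, had a log2 level of 10.46 on the sh Spp1 array and 10.12 on the sh Ctrl array in LLC. Its AE17 levels were 10.00 and 9.51, and its MC38 levels 9.88 and 9.14. It was thus higher on the sh Spp1 array of each line, with a mean ratio of 0.52 ± 0.20 (SD, n = 3 lines) and an adjusted p of 0.723 in limma. Cdc6, the ATPase that works with Cdt1, had a ratio of -0.69 in LLC, while AE17 (0.07) and MC38 (-0.03) lay near 0. Orc6, a subunit of the origin recognition complex, had -0.68, -0.66 and 0.21. Orc1, its largest subunit, had 0.09 in LLC and 0.52 in MC38, and its AE17 levels were 7.58 on both arrays. The subset's median ratios were -0.29 (LLC), 0.04 (AE17) and 0.36 (MC38).

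In LLC all 6 genes of the MCM ring had lower levels with sh Spp1, and in AE17 5 of 6 had higher ones. Mcm7 (Entrez gene 17220) had 9.30 on the sh Spp1 array and 10.68 on the sh Ctrl array in LLC, a 2.6-fold lower level. It had 10.64 and 10.23 in AE17, and 10.19 and 10.67 in MC38. Mcm4 (Entrez gene 17217) had 9.43 and 10.79 in LLC, 2.57-fold lower, while AE17 had 10.89 and 10.24 and MC38 10.70 and 10.75. Both genes thus had their lowest level of the 6 arrays on the LLC sh Spp1 array, and AE17 ran the other way from LLC.

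Mcm3 had 8.91 and 9.81 in LLC, while AE17 had 9.88 and 9.86 and MC38 10.04 and 9.81. Mcm5 had 9.28 and 9.89 in LLC, while AE17 had 10.83 and 10.34 and MC38 10.86 and 10.70. The sh Spp1 array of LLC was again the lowest of the 6 for both genes. Mcm2 differed least in LLC, with 9.66 and 9.91, and had 10.40 and 9.91 in AE17 and 11.01 and 10.88 in MC38. Mcm6 had 9.47 and 10.26 in LLC, while AE17 had 10.17 and 10.65 and MC38 10.21 and 10.35. On the quantile normalized scale it was the one ring gene below its sh Ctrl level in all 3 lines, though its MC38 ratio as deposited was 0.25, with a mean ratio of -0.47 ± 0.32 (SD, n = 3 lines) and an adjusted p of 0.723. The ring's median ratios were -0.84 (LLC), 0.45 (AE17) and 0.04 (MC38). Differences between lines in these ratios were not tested, since each line has 1 pair.

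**Figure D3:**
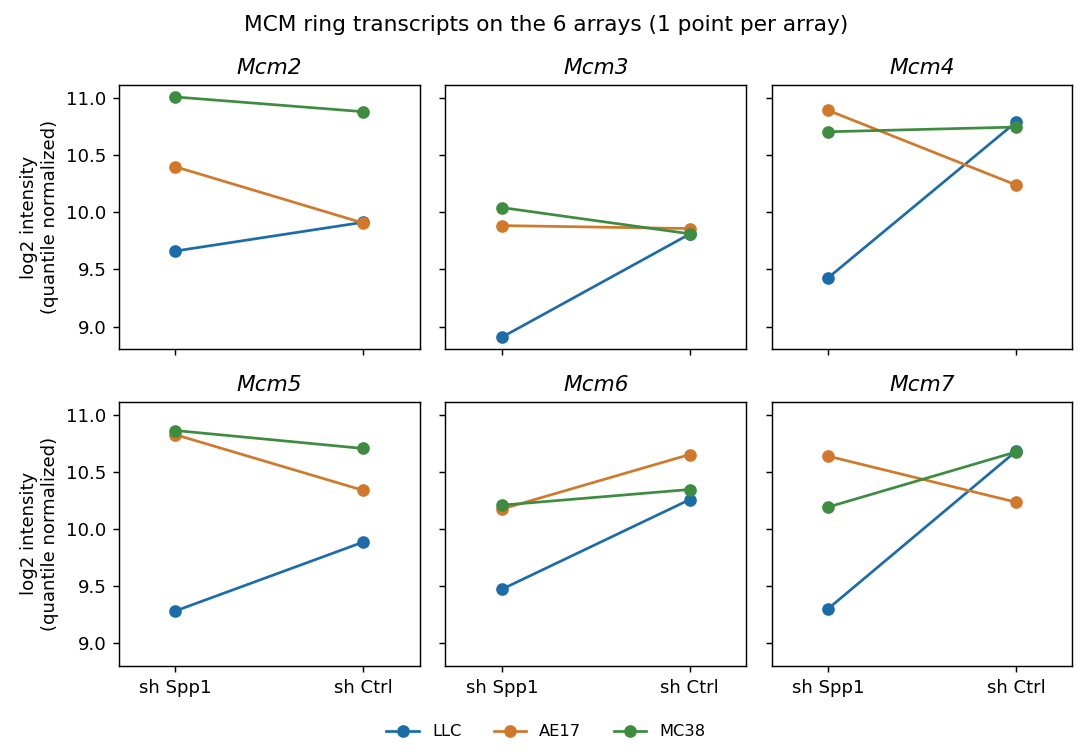
Log2 intensity of the 6 MCM ring genes, 1 point per array, with sh Spp1 on the left, sh Ctrl on the right and a line joining the arrays of a cell line. The LLC sh Spp1 array has the lowest point in every panel, at 8.91 for Mcm3 and 9.30 for Mcm7.

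The factors that turn the loaded ring into a helicase were lower in both LLC and AE17, at medians of -0.72 and -0.63, and lay at -0.03 in MC38. Gins2 (Entrez gene 272551) had the lowest LLC ratio of all members, with 7.55 on the sh Spp1 array and 9.14 on the sh Ctrl array, a 3.0-fold lower level. Its levels were 9.40 and 9.75 in AE17 and 9.62 and 9.86 in MC38, so the LLC sh Spp1 array stood more than 1 log2 unit under every other. Gins3 had 8.12 and 8.69 in LLC, while AE17 had 7.95 and 9.36 and MC38 8.81 and 8.83, with the larger difference in AE17. Gins4 had 9.28 and 10.29 in LLC, while AE17 had 10.22 and 11.14 and MC38 9.89 and 9.93. On this scale these GINS genes were below their sh Ctrl level in all 3 lines, at mean ratios of -0.73 ± 0.75, -0.67 ± 0.70 and -0.66 ± 0.54 (SD, n = 3 lines) for Gins2, Gins3 and Gins4. None passed in limma, at an adjusted p of 0.723 each. As deposited, their MC38 ratios were above 0, at 0.15 for Gins2, 0.31 for Gins3 and 0.36 for Gins4. Gins1, the remaining subunit, had ratios of -0.40 (LLC), -0.99 (AE17) and 0.13 (MC38). Cdc45, the helicase's partner, had -0.86 in LLC and -0.06 and -0.14 in the other lines. Mcm10, which acts as the helicase starts, had -0.39 in LLC, 0.07 in AE17 and 0.19 in MC38.

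Polymerase alpha and primase make the RNA-DNA primers. All 4 of their genes had lower levels on the sh Spp1 arrays of both LLC and AE17. Prim2 (Entrez gene 19076), the large primase subunit, had 8.76 and 10.27 in LLC, while AE17 had 9.79 and 10.60 and MC38 10.27 and 10.49. Pola1 (Entrez gene 18968), the catalytic subunit of polymerase alpha, had 8.74 and 9.24 in LLC, while AE17 had 8.26 and 9.83 and MC38 9.19 and 9.64. Both were lower in each line on this scale, with mean ratios of -0.85 ± 0.65 and -0.84 ± 0.63 (SD, n = 3 lines), unadjusted p of 0.0361 and 0.0354, and an adjusted p of 0.723 each in limma. As deposited, the MC38 ratio was 0.18 for Prim2 and -0.08 for Pola1. The largest difference was in LLC for Prim2 and in AE17 for Pola1. Prim1, the catalytic primase subunit, had 8.91 and 9.12 in LLC, while AE17 had 8.46 and 9.46 and MC38 9.09 and 8.97. Pola2 had ratios of -0.92, -0.14 and -0.12.

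Polymerase epsilon, which extends the leading strand, had its catalytic gene Pole at 8.35 and 9.49 in LLC, while AE17 had 9.18 and 8.91 and MC38 9.66 and 10.14. Another probe set of Pole, whose mean level of 3.90 lies under the brightness floor, had a ratio of -0.15 in LLC. The second subunit of the polymerase, Pole2, had 7.47 and 8.77 in LLC, while AE17 had 8.60 and 9.67 and MC38 9.39 and 9.33. The 2 subunits were both lower in LLC and ran in opposite directions in AE17 and MC38. Polymerase delta, which extends the lagging strand, did not share the LLC difference in both of its genes. Pold1, its catalytic subunit, had -0.45 in LLC but 0.72 in AE17 (MC38 0.16), and Pold2, an accessory subunit, had 0.19, 0.05 and -0.35 in the same order of lines. The AE17 value of Pold1 was the highest of all members there. The medians of all 8 genes were -0.71 (LLC), -0.47 (AE17) and -0.17 (MC38).

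The clamp, its loader and the joining enzymes were lower in LLC in all 8 measured genes, with a median of -0.67, and lay near 0 in AE17 and MC38 with -0.04 and -0.07. Rfc3, a loader subunit, had 6.80 on the sh Spp1 array and 7.92 on the sh Ctrl array in LLC, while AE17 had 8.12 and 8.26 and MC38 8.38 and 8.88. It was lower in each line, also as deposited, with a mean ratio of -0.59 ± 0.50 (SD, n = 3 lines) and an adjusted p of 0.723. Lig1, the ligase that seals Okazaki fragments, had 8.01 and 9.02 in LLC, while AE17 had 9.58 and 9.36 and MC38 9.40 and 9.30. Among the other loader subunits Rfc2 had -0.71, 0.11 and -0.75 and Rfc5 -0.72, -0.07 and -0.15. Pcna, the clamp itself, had smaller ratios of -0.35, -0.18 and 0.11. Rpa1 and Rpa2, of the protein that coats single-stranded DNA, had -0.63 and -0.32 in LLC and between -0.25 and -0.01 in the other lines. A second probe set of Rpa1, whose mean level of 3.86 lies under the brightness floor, had 0.23 in LLC, so its sign differed. Fen1, the flap nuclease, had -0.03 in LLC, and its second, dimmer probe set -0.46.

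Of the nucleotide supply genes, thymidylate synthase stood apart from ribonucleotide reductase in LLC. Tyms (Entrez gene 22171) had 7.52 on the sh Spp1 array and 8.82 on the sh Ctrl array in LLC, a 2.45-fold lower level, while AE17 had 9.07 and 8.86 and MC38 8.65 and 8.79. Rrm1, the large subunit of ribonucleotide reductase, had 9.98 and 10.28 in LLC, while AE17 had 10.73 and 10.74 and MC38 10.63 and 10.97. Rrm2, its small subunit, had 9.18 and 9.53 in LLC, while AE17 had 10.63 and 10.75 and MC38 10.41 and 10.29. A second, dimmer probe set of Rrm2, whose mean level of 4.19 lies under the brightness floor, had 0.34 in LLC, so its sign differed. Ccne1, which with Cdk2 starts S phase, had 8.27 and 8.07 in LLC, while AE17 had 9.23 and 9.22 and MC38 7.94 and 7.90. Its ratios of 0.20, 0.01 and 0.04 left it with Cdt1, Orc1 and Pold2 as the 4 members not below 0 in LLC.

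**Figure D4:**
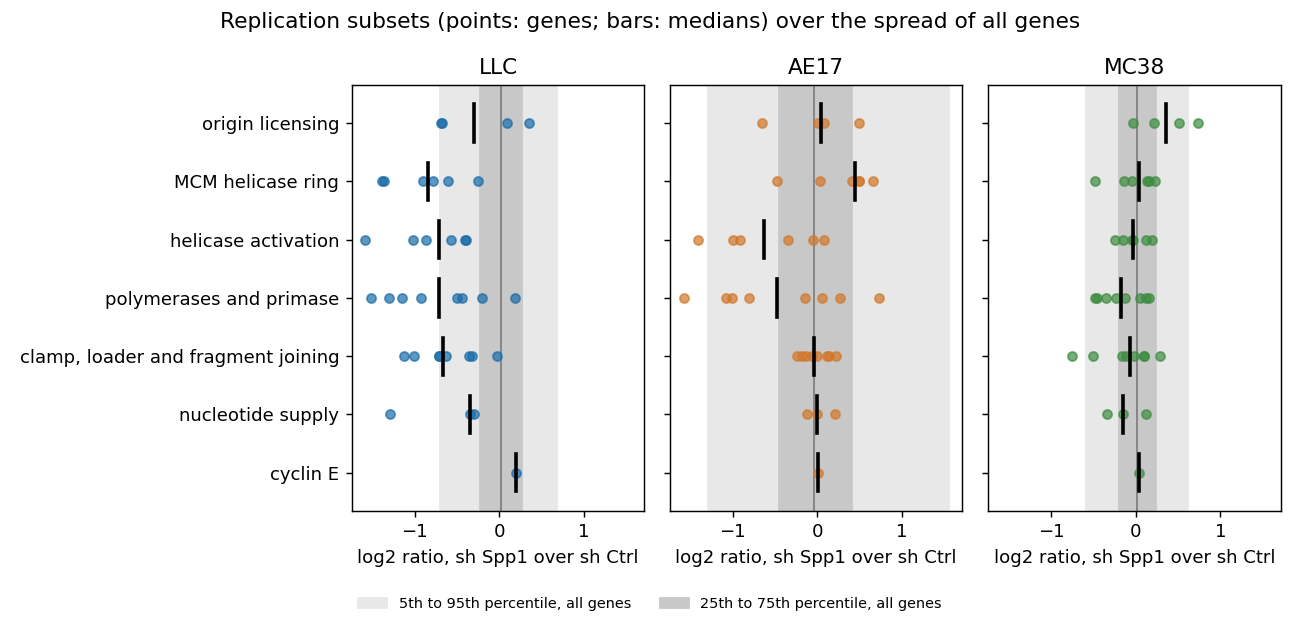
Log2 ratio of each gene (points) and the median of each subset (black bars) in the 3 lines, over the spread of all 16797 genes (light grey, 5th to 95th percentile; dark grey, 25th to 75th; grey line, median). In LLC the lowest medians are those of the MCM ring, -0.84, helicase activation, -0.72, and the polymerases, -0.71. The grey bands show single genes and are wider in AE17, with a 5th percentile of -1.29 against -0.69 in LLC.

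The scaling of the arrays bears on these values. As deposited, all genes had median ratios of -0.46 (LLC), -0.23 (AE17) and 0.08 (MC38), and the median of the members relative to it was -0.21, 0.33 and 0.22, so that the LLC difference was smaller and the signs in the other lines were positive. With each array centred on its median, 0 members were lower by at least 1 log2 unit in LLC, where 0.918% of all genes were, and 2 were higher, where 15.9% were, on a scale where the median of all genes was 0.33. The all-gene median as deposited is that of many dim probe sets. Among the 7445 genes at least as bright as the dimmest member, chosen as a yardstick after seeing the data, median ratios as deposited were 0.0028 (LLC), 0.09 (AE17) and 0.35 (MC38). Relative to these genes the members' medians were -0.67 (LLC), 0.01 (AE17) and -0.05 (MC38), close to the quantile normalized values. Against the 10 genes lower by at least 1 log2 unit in LLC, the count was 9 with the LLC arrays normalized by themselves, where 1.73% of all genes were. As deposited it was 11, where 17.2% of all genes were, so the background was far higher on that scale.

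Other replication genes, from lists set by name with earlier results of these data known, were also mostly lower in LLC after quantile normalization. Being read on the same arrays, they are not independent of the members. Of 31 further replication factors tested, 25 had a ratio below 0 there, where 47.2% of all genes did. In LLC 4 were lower by at least 1 log2 unit, where 1.81% of all genes were. The list's medians were -0.42 (LLC), -0.31 (AE17) and -0.01 (MC38). As deposited and relative to the median of all genes, they were -0.10, -0.08 and 0.18, with 20 of 31 below that median in LLC. In limma 0 of the 31 passed. Those 4 were Wdhd1, which links helicase and polymerase, at -1.43, Dscc1, of an alternative clamp loader, at -1.42, the histone chaperone Chaf1b at -1.33, and Topbp1, which helps load Cdc45, at -1.31. Dscc1 lay close to the brightness floor on the LLC sh Spp1 array, at 4.62. In AE17 4 of the 31 were also lower by that much, where 8.72% of all genes were: Orc4 had -1.68, Dbf4 -1.37, Rpa3 -1.18 and Orc2 -1.06. Cdc7, the kinase that with Dbf4 fires licensed origins, had ratios of -0.51 (LLC), -0.89 (AE17) and -0.77 (MC38), with a mean of -0.72 ± 0.19 (SD, n = 3 lines) with an adjusted p of 0.723. Topbp1 had the lowest mean, -0.80 ± 0.54, and Recql4 and Ticrr the highest, 0.38 ± 0.49 and 0.16 ± 0.50.

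Gmnn, which encodes the Cdt1 inhibitor geminin, was added to the text after its values were seen. It had -0.52, -0.63 and -0.14, opposite in sign to Cdt1 in each line on the quantile normalized scale. As deposited, its MC38 ratio was 0.02, of the same sign as that of Cdt1, 1.07. Of 9 other genes of nucleotide supply, Tk1, thymidine kinase, had 7.59 on the sh Spp1 array and 9.10 on the sh Ctrl array in LLC, against 10.53 and 8.70 in AE17 and 9.61 and 9.88 in MC38. It was lower in LLC and higher in AE17 by over 1 log2 unit each. Rrm2b, the p53-induced small subunit of ribonucleotide reductase, had 0.08, -1.34 and -0.30. The lowest means in this list were those of Rrm2b and the deoxycytidine kinase Dck, -0.52 ± 0.73 and -0.42 ± 0.20, and the highest those of Dctpp1 and Shmt1, 0.17 ± 0.12 and 0.12 ± 0.69. None of the 9 passed.

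As a list, the 30 G1/S regulators did not share the LLC difference, with a median of 0.08. Of the 30, 20 were above 0 and 10 below, where 47.2% of all genes were below. Some were lower there like the members: 3 of 30 lay below the 5th percentile of all genes. These were Fbxo5 (-0.79), E2f1 (-0.78) and Rbl1 (-0.69). In LLC 0 of 30 were past 1 log2 unit in either direction. Cdkn1a, the p21 inhibitor of cyclin-dependent kinases, had the highest mean, 0.82 ± 0.35 (SD, n = 3 lines, adjusted p = 0.723). Rbl2 and Fbxo5, a retinoblastoma relative and an inhibitor of the anaphase-promoting complex, had the lowest, -0.65 ± 0.31 and -0.64 ± 0.53. In AE17 3 of 30 were lower by at least 1 log2 unit, where 8.72% of all genes were, and 4 were higher, where 9.9% were, both near the background. Rb1, the retinoblastoma gene, had 6.86 on the sh Spp1 array and 9.36 on the sh Ctrl array there, against ratios of 0.68 in LLC and 0.26 in MC38. The kinase inhibitors Cdkn2c, Cdkn1a and Cdkn2b had 1.74, 1.20 and 1.17 in AE17, Ccnd3 1.01, E2f5 -1.13 and Fbxo5 -1.07. In MC38 Ccnd2, a D cyclin, had 4.81 on the sh Spp1 array, close to the brightness floor, and 7.07 on the sh Ctrl array. Its levels were 11.57 and 11.05 in LLC and 11.22 and 10.57 in AE17, which are ratios of 0.52 and 0.66.

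The lines were also compared with each other, to place the LLC sh Spp1 levels. The members were higher in MC38 than in LLC in 33 of 36 genes, with a median log2 difference of 0.65, and higher in AE17 than in LLC in 33 of 36, also with 0.65, where 50.2% and 58.4% of all genes were higher. The difference was larger between the sh Spp1 arrays than between the sh Ctrl arrays. For each gene the sh Spp1 difference minus the sh Ctrl difference equals the ratio of MC38 or AE17 minus that of LLC. The larger sh Spp1 difference thus restates the ratios above and is no further result. Among sh Spp1 arrays the median difference was 1.002 for MC38 over LLC and 0.95 for AE17 over LLC, with 18 and 16 of 36 genes higher by at least 1 log2 unit, where 6.12% and 10.7% of all genes were. Among sh Ctrl arrays it was 0.39 and 0.37, with 1 and 2 of 36 genes past that size, where 4.87% and 6.38% were. As deposited and relative to genes as bright, the sh Ctrl differences were 0.41 and 0.46 and the sh Spp1 differences 1.14 and 1.05. Between MC38 and AE17 the median difference was 0.13 among sh Spp1 arrays and -0.04 among sh Ctrl arrays.

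**Figure D5:**
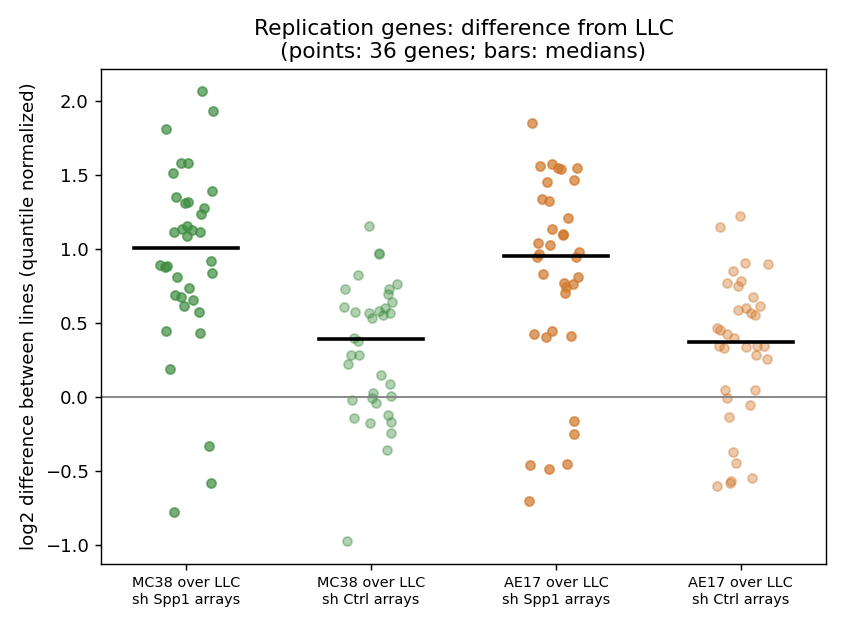
Log2 difference of MC38 over LLC and of AE17 over LLC for the 36 genes (points), taken between the sh Spp1 arrays and between the sh Ctrl arrays, with medians as black bars. The medians are 1.002 and 0.39 for MC38 over LLC and 0.95 and 0.37 for AE17 over LLC.

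In the limma fit over all 6 arrays, with the shRNA as a term, 0 of 16797 genes (0%) and 0 of 36 members passed in each of the 3 contrasts between lines. At an unadjusted p under 0.05, 16 of 36 members were higher in MC38 than in LLC, where 6.24% of all genes were, and 14 of 36 were higher in AE17 than in LLC, where 7.83% were. In the other direction there was 1 member in each contrast, where 5.29% and 4.99% were: Cdt1, at -0.78 ± 0.22 (SE) in MC38 over LLC, and Pold2, at -0.64 ± 0.24 (SE) in AE17 over LLC. Each line's mean is over 1 sh Spp1 and 1 sh Ctrl array, so the LLC difference described above enters it. In MC38 over AE17, 2 members were higher at that level, where 5.34% of all genes were, and 1, Ccne1, was lower, where 7.81% were. In MC38 over LLC, Cdc6 had a difference of 1.48 ± 0.28 (SE), Mcm2 1.16 ± 0.26 (SE) and Rfc3 1.27 ± 0.30 (SE). The smallest adjusted p of these genes with all arrays was 0.192. Their differences were the same with either AE17 array left out, in fits that leave 1 array for AE17.

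Ccne1 had a higher mean level in AE17 than in LLC or MC38, though it passed in no contrast with all arrays. It averaged 7.92 in MC38 and 9.23 in AE17, a log2 difference of -1.31 ± 0.20 (SE, adjusted p = 0.133), the smallest adjusted p of any member in limma. Over LLC, where it averaged 8.17, AE17 was higher by 1.06 ± 0.20 (SE, adjusted p = 0.267). Its MC38 over AE17 difference was -1.36 without the AE17 sh Spp1 array and -1.26 without the AE17 sh Ctrl array. Rrm2 had 10.69 in AE17 and 9.36 in LLC, a difference of 1.34 ± 0.23 (SE, adjusted p = 0.235). Without the AE17 sh Ctrl array the difference was 1.33.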

How the data were processed

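Transcript levels were measured on 6 arrays, 1 sh Spp1 and 1 sh Ctrl array in each of 3 mouse lines. The deposited table holds linear intensity values for 41345 probe sets. RMA is named in the submitters' processing notes, and GeneSpring GX 12.5 in the design text. Array type beyond whole-transcript labelling, background correction and genome build are not given in the sources used here. The deposited intensities differed in median between arrays, so they were log2 transformed and quantile normalized with limma 3.58.1 in R 4.3.3. Alternatives use the deposited log2 values unchanged, or centre every array on its own median.

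Genes were named from the platform annotation: 23521 probe sets carried 1 symbol, 1814 several and 16010 none. Of those with 1 symbol, 17757 passed a brightness floor at the 30th percentile of means (log2 4.49), and the brightest per gene was kept, for 16797 genes. The fit used lmFit and eBayes with line and shRNA as terms and Benjamini-Hochberg adjustment at 0.05 over all genes. The cell line pairs the arrays, as the labels give it. The code was tested on simulated data. Counts within a line take ratios of at least 1 log2 unit in size, over genes with an array at or above the floor.

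The members, the lists and the subsets were chosen with earlier results of these data known. Members named with their levels are those with an absolute ratio of at least 1 in any line, those of 1 sign in all lines with a mean of at least 0.4 in size, and the whole MCM ring, nucleotide supply and cyclin E subsets. Of the further lists, members past 1 in any line and the 2 highest and 2 lowest means are named. Promoters were to be printed for the 2 lowest LLC ratios too. Those genes and Mcm4 had no window, and the next lowest with one were used. Promoter windows are from RefSeq, build GRCm38.p6, and all 36 measured members matched it by Entrez ID.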

Additional observations from a re-analysis of the deposited data

Results flagged for a closer look

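Mcm4 and Mcm7 ran in opposite directions in LLC and AE17, by at least 1 log2 unit in LLC and at least 0.4 in AE17. Mcm4 had -1.36 in LLC and 0.65 in AE17, and Mcm7 had -1.38 in LLC and 0.40 in AE17. Each value is 1 array over 1 array, and the difference between lines was not tested. The AE17 arrays correlated at r = 0.939, below the 0.942 to 0.954 between either of them and arrays of other lines, while the LLC pair correlated at r = 0.979, and the part of this in the values was not tested.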

How the results depend on the processing

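With limma 0 genes and 0 members passed for the shRNA under all 11 alternatives, and the smallest adjusted p over all genes ran from 0.126 to 0.943. Without the cell line as a replicate block the count was also 0. The members lower at an unadjusted p under 0.05 numbered 2, 0 to 7 with a line left out, the 0 without LLC and the 7 without AE17, and they numbered 0 as deposited or centred, 1 without the block and 4 with array weights. Genes at that level numbered 1017, and 2170 as deposited, 4332 with centred arrays and 630 without the block. Relative to all genes, the members' median in LLC was -0.205 as deposited and with centred arrays, against -0.678. Its mean over the lines turned to 0.116 under both, from -0.232, and ran from -0.363 to -0.00848 with a line left out. The same scalings turned the mean over lines of the MCM ring to 0.302, of the clamp subset to 0.0762 and of nucleotide supply to 0.236. They put nucleotide supply at 0.191 in LLC and 0.111 in MC38, and the polymerases at 0.14 in MC38. Without LLC the ring's mean was 0.255, the highest of a range from -0.422. Relative to genes as bright as the members, an alternative chosen after seeing the data, none of these turned in LLC. With centred arrays the mean ratio turned to 0.23 for Mcm6 and 0.036 for Gins4. On that scale the median ratios of all genes were themselves above 0, at 0.33 (LLC), 0.22 (AE17) and 0.26 (MC38). Of 90 alternative values of single members, 88 kept their direction, but sizes moved. With centred arrays the mean ratio was -0.13 for Gins2, -0.09 for Gins3, -0.22 for Pola1, -0.17 for Prim2, -0.10 for Rfc3 and 1.23 for Cdt1, and Gins4 in LLC had -0.09. With a line left out, Gins2 ran from -0.97 to -0.30, Gins3 from -0.99 to -0.30, Pola1 from -1.04 to -0.48 and Prim2 from -1.16 to -0.52. Members past 1 log2 unit numbered, with centred arrays, 2 higher and 0 lower in LLC (15.9% and 0.918% of all genes), 6 higher and 1 lower in AE17 (19% and 4.82%) and 1 higher in MC38 (5.02%). As deposited they numbered 2 lower in AE17 (13.1% of all genes) and 1 higher in MC38 (2.12%). At a threshold of 0.5 they numbered 22 lower in LLC (10.1% of all genes), 2 higher and 8 lower in AE17 (21.5% and 22.9%), and 2 higher and 2 lower in MC38 (8.8% and 7.39%). Between lines, genes called in MC38 over LLC, AE17 over LLC and MC38 over AE17 numbered 225, 103 and 287 as deposited and 89, 9 and 100 with no shRNA term (no replicate block). They numbered 42, 0 and 27 with the floor at the 50th percentile and 44, 0 and 0 with no floor. With 1 array left out they ran from 0 to 1032, 0 to 1443 and 0 to 1157, and members from 0 to 3, 0 to 1 and 0 to 1, in each case above 0 only without an AE17 array. Such fits leave 1 array for AE17, which is assumed to vary like the others. The causes of these changes were not tested.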
